A study of Mus musculus with 16 samples.

Results

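Peaks of 10 ChIP-seq lists were examined at 10 genes of the Nodal and Smad2 pathway, out of 22232 protein-coding gene names annotated on the mouse genome (GENCODE M1, build mm9). The 10 genes were taken by name, with earlier results of these data known. They comprise the ligands Nodal and Gdf3, the antagonists Lefty1 and Lefty2, the co-receptor Tdgf1, the receptors Acvr1b and Acvr2b, the signal transducers Smad2 and Smad3, and the inhibitory Smad7. At each gene the number of peaks, the base pairs they covered and the fold enrichment given for them were read within 2500 bp of a start site and over the gene body. The study connects PCGF5, a subunit of a Polycomb repressive complex 1 (PRC1), to this pathway in neural differentiation, and the lists allow the question of which of its genes carried Polycomb marks or PCGF5 at which stage.

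Chromatin came from mouse embryonic stem cells (ES cells) of the 46C line, which carries a green fluorescent reporter at Sox1 and was grown on inactivated mouse embryonic fibroblasts with LIF and 2 kinase inhibitors, and from neural precursor cells (NPCs), the cultures at day 6 of suspension neural differentiation. H2AK119ub1, the ubiquitin mark that PRC1 places on histone H2A, and H3K27me3, the methyl mark that Polycomb repressive complex 2 places on histone H3, were each profiled in both stages in wild type cells and in cells labelled shPCGF5, called PCGF5-depleted here, in which a lentiviral short hairpin RNA targets Pcgf5. These lines were drug-selected clones, and neither the clone behind these libraries nor the number of clones is given in the sources used here. Flag-PCGF5 was profiled in both stages in wild type Sox1-GFP cells whose own Pcgf5 gene carries a 3-fold Flag tag. Each of these 10 groups had 1 library, so there is no replicate error and no test was made, and 6 input libraries were not used here.

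Nodal is a secreted ligand of the TGF-β superfamily that acts with the co-receptor Tdgf1 (Cripto) through the activin receptors Acvr1b and Acvr2a or Acvr2b, which phosphorylate Smad2 and Smad3. The pathway sustains its own ligand and induces its own antagonists, Lefty1 and Lefty2, and it directs cells of the early embryo to mesoderm and endoderm while its inhibition favours neural fate. Polycomb marks are typical of developmental genes that are silent or poised, and they often lie at promoters rich in CpG dinucleotides.

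The 10 lists differed in length, which the members' values inherit. They held 3845 to 8672 peaks for H2AK119ub1, 10234 to 14759 for H3K27me3, and 653 in ES cells and 12013 in NPCs for Flag-PCGF5. Read totals are not in the lists, so depth is unknown, and a mark below the caller's threshold leaves no peak. Of 6 mesoderm and endoderm markers, 5 or 6 had an H3K27me3 promoter peak in each of the 4 populations. Of 6 ES cell markers, 1 (Esrrb) had one in each ES population. In wild type NPCs 3 had one (Esrrb, Klf4 and Zfp42), and in PCGF5-depleted NPCs 2 did (Esrrb and Klf4). Esrrb was thus marked at both stages. Of the same 6, H2AK119ub1 was at Esrrb in wild type ES cells and at Dppa3 in PCGF5-depleted ES cells. In NPCs it was at Esrrb and Klf4 in wild type and at Esrrb in PCGF5-depleted cells. Of 3 feeder fibroblast markers, 1 had an H3K27me3 promoter peak in wild type ES cells, 3 in PCGF5-depleted ES cells and 2 in each NPC population. Of 4 neural markers, Pax6, Nes and Hes5 had an H3K27me3 promoter peak in both NPC populations. In ES cells it was at 2 (Pax6 and Hes5) in wild type and at 3 in PCGF5-depleted cells. H2AK119ub1 was at 3 of the 4 in each ES population, at 1 (Pax6) in wild type NPCs and at 3 in PCGF5-depleted NPCs. Peaks do not measure the hairpin's effect on Pcgf5 RNA, so the depletion could not be checked here.

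In wild type NPCs, H3K27me3 peaks lay at the promoters of 4 of the 10 genes, namely Nodal, Lefty1, Lefty2 and Tdgf1. These are the ligand, both of its antagonists and its co-receptor, all of which act outside the cell or at its surface. So do Gdf3, Acvr1b and Acvr2b, which had no H3K27me3 promoter peak in wild type NPCs. None of the 4 had an H3K27me3 promoter peak in PCGF5-depleted NPCs or in wild type ES cells. Among all genes, 15.7% had an H3K27me3 promoter peak in wild type NPCs, 15.4% in PCGF5-depleted NPCs, 13.4% in wild type ES cells and 12.9% in PCGF5-depleted ES cells. The share of all genes marked in wild type NPCs alone was 3.74%, that in PCGF5-depleted NPCs alone was 3.54%, and that in wild type NPCs but not wild type ES cells was 6.08%. Of the 3480 genes marked in wild type NPCs, 832 (23.9%) lacked a promoter peak in PCGF5-depleted NPCs, and this held for 4 of the 4 marked members. For Nodal, Lefty1 and Lefty2 the paper had already reported lower promoter H3K27me3 in PCGF5-deficient NPCs, so these members were not a blind choice. The reverse pattern was shown by Acvr1b, a type I receptor, with a promoter peak in PCGF5-depleted NPCs and not in wild type NPCs. In ES cells Lefty1 had a promoter peak in PCGF5-depleted cells alone, as did 3.43% of all genes. Gdf3, Smad2 and Smad3 had no promoter peak in any of the 10 lists, like 66.2% of all genes.

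**Figure D1:**
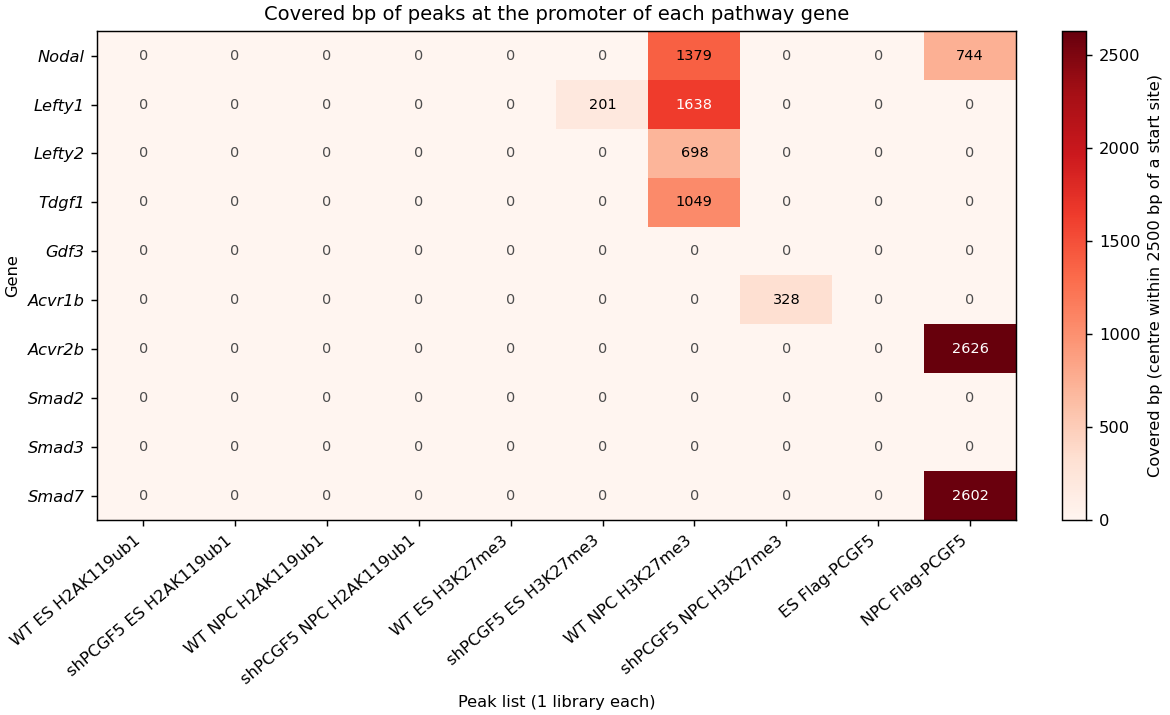
Base pairs covered by promoter peaks for each of the 10 genes (rows) in each of the 10 lists (columns, 1 library each), with the number printed in each cell and darker red for more base pairs. Nodal, Lefty1, Lefty2 and Tdgf1 stand out in the wild type NPC H3K27me3 column with 1379, 1638, 698 and 1049 bp, Nodal, Acvr2b and Smad7 in the NPC Flag-PCGF5 column with 744, 2626 and 2602 bp, and the 4 H2AK119ub1 columns hold 0 throughout.

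H2AK119ub1 gave no promoter peak at any of the 10 genes in any of the 4 populations. The shares of all genes with one were 6.69% in wild type ES cells, 5.96% in PCGF5-depleted ES cells, 4.98% in wild type NPCs and 4.17% in PCGF5-depleted NPCs, each of which corresponds to less than 1 gene in 10, so a count of 0 sets the members little apart. Over the gene bodies the count was 0 as well, against 9.95%, 8.86%, 5.29% and 5.34% of all genes in the same order. The paper reports lower H2AK119ub1 at the Nodal, Lefty1 and Lefty2 promoters in PCGF5-deficient NPCs by ChIP-qPCR, which does not rest on peak calls. At Nodal it also reports a decrease from genome browser tracks of its ChIP-seq signal, a measure unlike the peak lists read here. Flag-PCGF5 had promoter peaks at 3 members in NPCs, Nodal, Acvr2b and Smad7, against 13.7% of all genes, and at 0 members in ES cells, against 0.787%. The ES Flag-PCGF5 peak nearest to any member lay 72777 bp from a Smad7 start site, and for Nodal the nearest was 18122585 bp away.

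**Figure D2:**
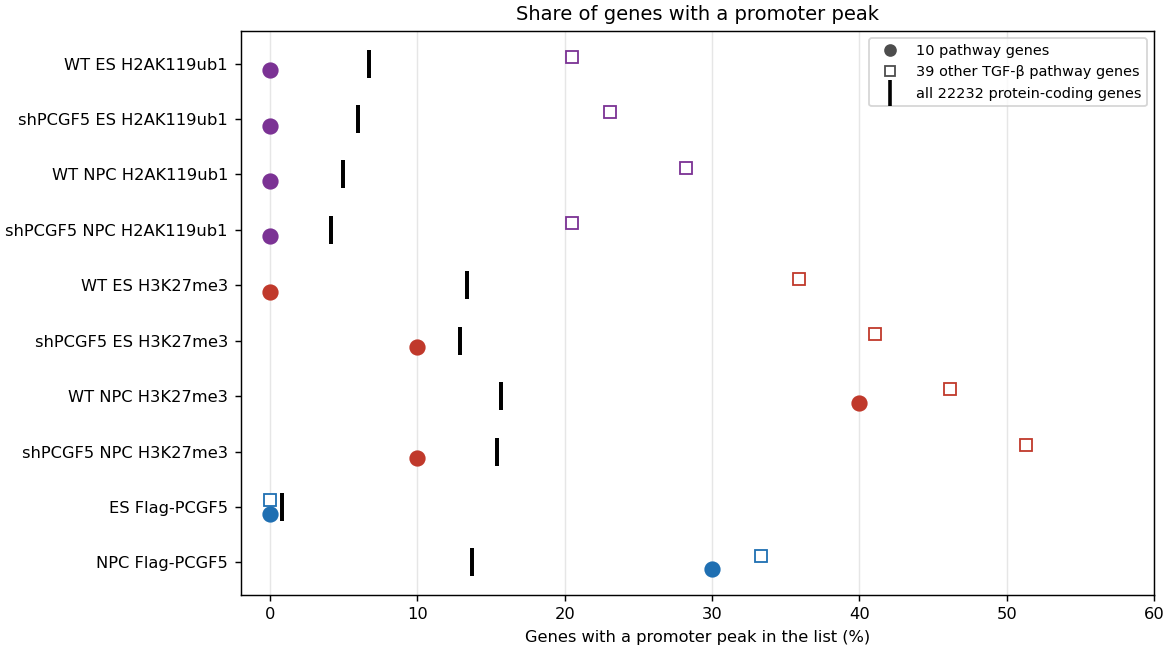
Percent of genes with a promoter peak in each list, for the 10 pathway genes (filled circles), 39 other genes of the wider TGF-β pathway (open squares) and all 22232 protein-coding genes (black bars). The 10 genes lie at 40% in wild type NPC H3K27me3 and 30% in NPC Flag-PCGF5, and at 0% or 10% in the other 8 lists.

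Nodal (chr10:60880720-60888086, + strand) was the only member with both H3K27me3 and Flag-PCGF5 promoter peaks in wild type NPCs. In wild type NPCs an H3K27me3 peak of 448 bp lay across the start site (chr10:60880480-60880927, fold 4.28), and a wider one of 931 bp followed over coding sequence and the first intron (chr10:60881115-60882045, fold 7.13). The fold of the wider peak ranked at percentile 88.2 of its own list, and that of the peak over the start at percentile 38.0. Flag-PCGF5 in NPCs gave a peak of 190 bp centred 1557 bp upstream (fold 2.02, percentile 25.1) and one of 554 bp centred 1356 bp downstream in the intron (chr10:60881800-60882353, fold 2.30, percentile 57.2). With a window of 1000 bp neither Flag-PCGF5 peak counts as a promoter peak. A further Flag-PCGF5 peak of 207 bp stood 25072 bp downstream of the start (fold 2.58). H3K27me3 thus lay across the start and Flag-PCGF5 on either side of it, and their peaks shared 246 bp of the intron, which is 26.4% of the H3K27me3 peak and 44.4% of the Flag-PCGF5 peak. In the other 8 lists Nodal had neither a promoter peak nor a gene body peak, and no H2AK119ub1 list had a peak closer than 175202 bp to its start. Among all genes, 3.48% carried both Flag-PCGF5 and H3K27me3 promoter peaks in wild type NPCs, and 0.819% also lacked H3K27me3 in PCGF5-depleted NPCs.

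The shared intronic stretch is printed because it is where Flag-PCGF5 and H3K27me3 peaks of wild type NPCs coincide at the Nodal promoter. It lies 1080 to 1325 bp downstream of the Nodal start at chr10:60881800-60882045 on the + strand, read from the mm9 genome sequence 5′ to 3′, with CpG dinucleotides in capitals. It holds 12 CpG, has a GC content of 61.4%, and includes, near its 5′ end, a dinucleotide repeat of 64 bp that lies within both peaks.
Nodal intron: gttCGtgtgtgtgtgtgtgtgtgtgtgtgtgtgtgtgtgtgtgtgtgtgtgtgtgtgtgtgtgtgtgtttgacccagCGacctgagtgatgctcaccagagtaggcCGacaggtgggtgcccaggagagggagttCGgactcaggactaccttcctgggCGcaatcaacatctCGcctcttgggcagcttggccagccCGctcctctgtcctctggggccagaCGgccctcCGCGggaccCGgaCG

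Lefty1 (chr1:182865153-182868531, + strand) and Lefty2 (chr1:182823239-182829234, + strand), neighbouring genes for secreted inhibitors of Nodal, both carried H3K27me3 in wild type NPCs, but in different places. At Lefty1 a peak of 338 bp lay upstream (chr1:182864517-182864854, fold 4.70) and one of 1300 bp lay across the start and the first exon (chr1:182865027-182866326, fold 4.71). At Lefty2 the start itself was free of peaks, and the promoter peak of 698 bp was centred 1391 bp inside the gene over coding exons (chr1:182824282-182824979, fold 6.55, percentile 83.4), with a second of 209 bp farther into the gene (fold 3.38). Neither gene had a promoter peak in PCGF5-depleted NPCs.

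Not all H3K27me3 at Lefty1 differed between the genotypes. A peak of 641 bp centred 5526 bp downstream of the start, past the end of the gene, was present in wild type NPCs (chr1:182870359-182870999, fold 5.98), and PCGF5-depleted NPCs had a peak of 436 bp wholly inside it (fold 4.70), covering 68.0% of its length. An H2AK119ub1 peak of 206 bp in wild type NPCs (fold 3.49, percentile 18.9) lay wholly within the same wild type H3K27me3 peak, and no PCGF5-depleted H2AK119ub1 peak was there. In NPCs the site past the gene end thus had H3K27me3 in both genotypes, unlike the promoter.

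In ES cells the order at Lefty1 was the opposite. PCGF5-depleted ES cells had an H3K27me3 peak of 201 bp centred 1971 bp downstream of the start, and wild type ES cells had 0 bp. This peak ranked low, with a fold of 3.91 at percentile 9.23 of its list and a −log10 q of 1.24, short of a q-value of 0.05. The PCGF5-depleted ES list also had peaks of 338 and 305 bp centred 7066 and 8196 bp downstream, with folds of 4.68 and 5.84. The paralogs share sequence, and 45.8% of the 36-base words of the 201 bp peak also occur at Lefty2. For the 698 bp Lefty2 peak in wild type NPCs, 274 of 663 such words (41.3%) occur at Lefty1, while the 3 wild type NPC peaks around Lefty1 share 0. How reads that fit both copies were placed is not given in the sources used here, so the Lefty2 promoter peak is uncertain in its copy for that share of its length. Flag-PCGF5 had no promoter peak at either gene, and the nearest NPC peak, of 585 bp and fold 2.74, was centred 18120 bp upstream of Lefty2. The paper, however, counts both among its PCGF5 target genes and reports PCGF5 at their promoters in NPCs by ChIP-qPCR.

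The centre of the upstream Lefty1 peak is printed as a stretch that carried H3K27me3 in wild type NPCs and shares no 36-base word with the paralog. It lies 318 to 617 bp upstream of the start at chr1:182864536-182864835, from the mm9 genome, + strand, with CpG in capitals. It holds 5 CpG, and the median over all wild type NPC H3K27me3 peaks is 7 CpG in the central 300 bp.
Lefty1 upstream: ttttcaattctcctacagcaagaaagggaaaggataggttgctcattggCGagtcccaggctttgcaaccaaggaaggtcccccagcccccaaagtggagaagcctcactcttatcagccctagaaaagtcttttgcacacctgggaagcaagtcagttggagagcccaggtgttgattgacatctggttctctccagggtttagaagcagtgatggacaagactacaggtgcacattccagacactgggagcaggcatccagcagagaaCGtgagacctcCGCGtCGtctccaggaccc

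Tdgf1 (chr9:110842114-110848662, − strand) encodes Cripto, a cell-surface co-receptor for Nodal. In wild type NPCs, H3K27me3 lay on both sides of its start, with a peak of 782 bp upstream (chr9:110849051-110849832, fold 5.24, percentile 64.1) and one of 267 bp in an intron downstream (chr9:110847626-110847892, fold 4.45, percentile 43.0). The 1049 bp covered at the promoter in wild type NPCs compare with 0 bp in each of the other 9 lists. The PCGF5-depleted NPC list had its nearest H3K27me3 peak 24203 bp beyond the start, past the 3′ end of the gene, with 279 bp and a fold of 4.24. Lefty2 and Tdgf1 were the members marked at the promoter in the wild type NPC H3K27me3 list and in none of the other 9, a pattern of 353 genes (1.59%).

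The centre of the upstream Tdgf1 peak, chr9:110849292-110849591, lies 630 to 929 bp upstream of the start and is given on the − strand of mm9, the strand of the gene. It holds 9 CpG, in capitals.
Tdgf1 upstream: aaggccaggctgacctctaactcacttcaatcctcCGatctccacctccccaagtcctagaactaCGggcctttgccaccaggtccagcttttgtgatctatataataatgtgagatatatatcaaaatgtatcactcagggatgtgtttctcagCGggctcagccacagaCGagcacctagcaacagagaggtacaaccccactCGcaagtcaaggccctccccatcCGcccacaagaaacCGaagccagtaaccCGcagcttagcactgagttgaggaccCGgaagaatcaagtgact

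**Figure D3:**
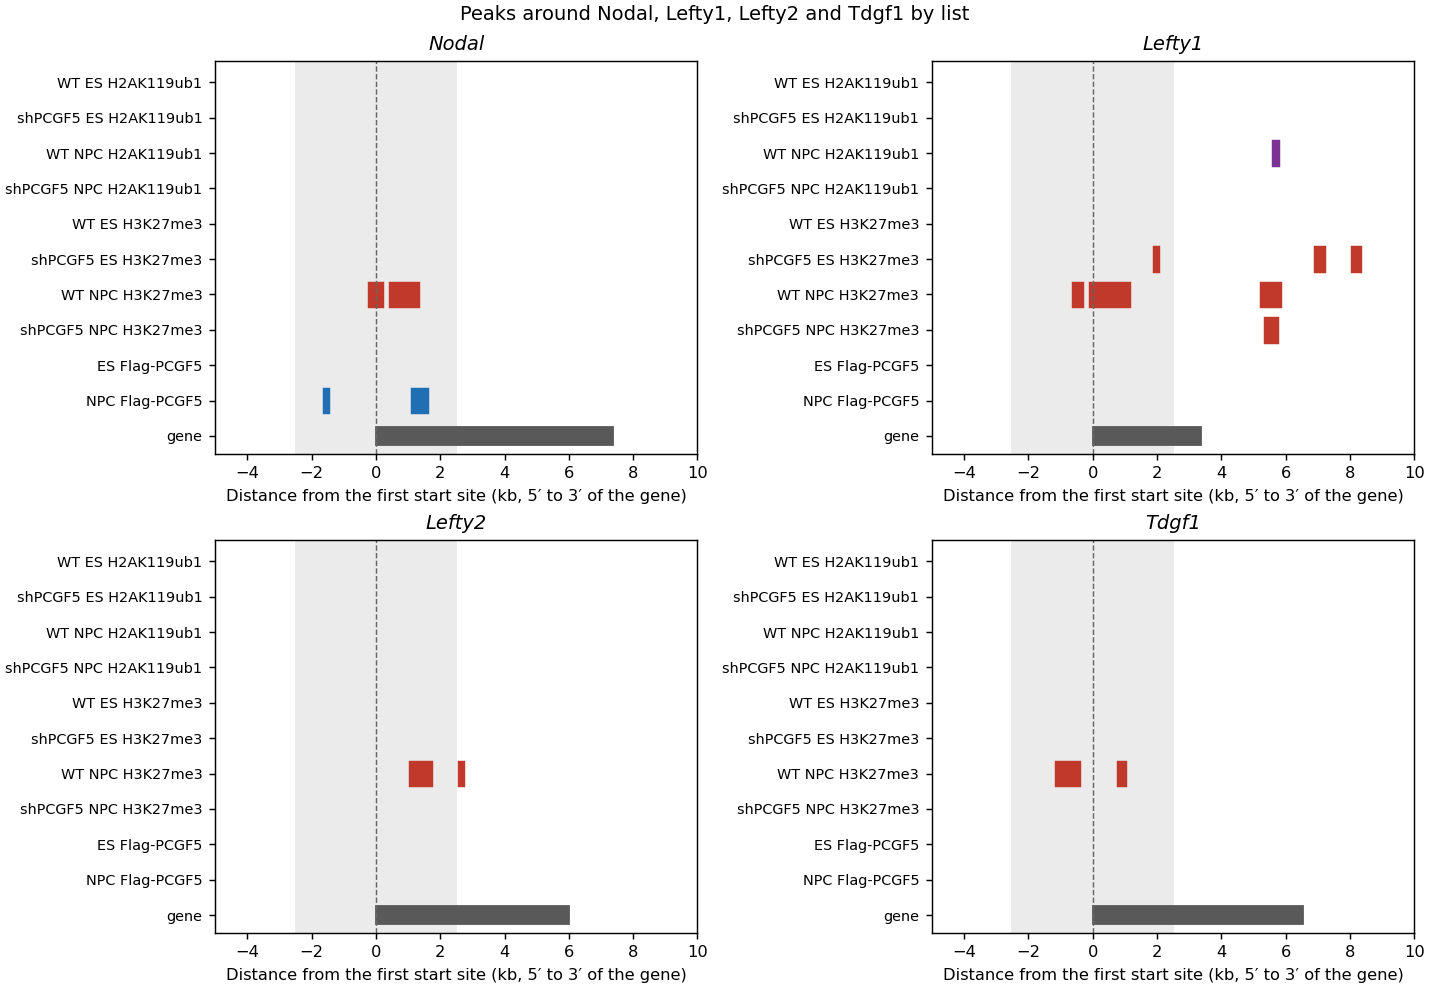
Peaks (coloured boxes, drawn to scale) of the 10 lists around Nodal, Lefty1, Lefty2 and Tdgf1, against distance from the start site in kb in the direction of the gene. The dark bar is the gene, the dashed line its start and the grey band the 2500 bp window. Inside the band the wild type NPC H3K27me3 row (red) has peaks at all 4 genes and the PCGF5-depleted NPC row at 0, while the blue Flag-PCGF5 peaks are at Nodal.

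Over the 4 marked genes, promoter H3K27me3 in wild type NPCs covered 4764 bp in all, with a median of 1214 bp per gene and a range of 698 to 1638 bp. The median over all 3480 genes marked in that list was 1303 bp. Their highest folds ran from 4.71 at Lefty1 to 7.13 at Nodal, around a median of 5.40 for all marked genes. The members' ranges of covered bp and of fold thus both spanned the medians of their list. Over the gene bodies, 4 members had H3K27me3 in wild type NPCs, against 16.2% of all genes, covering 3487 bp, and 0 had it in PCGF5-depleted NPCs, against 15.7%. In wild type ES cells 0 members had it, against 15.9%, and in PCGF5-depleted ES cells Lefty1 had it, against 14.7%.

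Gdf3 (chr6:122555421-122560105, − strand), a Nodal-related ligand expressed in pluripotent cells, had no promoter or gene body peak in any list. PCGF5-depleted ES cells had H2AK119ub1 peaks centred 12466 and 14198 bp upstream, with folds of 3.04 and 6.07. Their H3K27me3 peaks were centred 12157, 12508 and 13315 bp upstream, with folds of 3.57, 5.71 and 3.79. Neither mark had a peak at these places in wild type ES cells. All these peaks lay between Gdf3 and Dppa3, an ES cell marker, and nearer to the start of Dppa3. The H2AK119ub1 peak with a fold of 6.07 counted as a promoter peak of Dppa3, so these peaks cannot be assigned to Gdf3. Closer to the gene, a stretch of 423 bp about 5 kb upstream (chr6:122565353-122565775) was covered in 5 lists. The Dppa3 start lay 10653 bp beyond it, on the side away from Gdf3. They were both marks in both ES populations and H3K27me3 in PCGF5-depleted NPCs. The folds there were 8.13 and 5.23 for H2AK119ub1 in wild type and PCGF5-depleted ES cells, 5.42 and 6.74 for H3K27me3 in the same cells, and 2.88 for H3K27me3 in PCGF5-depleted NPCs. The whole stretch is an uninterrupted repeat of a 6-base unit, and so is the whole length of each of these 5 peaks. Tandem repeats of at least 50 bp occurred in 4.93% to 12.9% of the peaks of the 8 histone lists and in 1.23% and 2.06% of those of the Flag-PCGF5 lists. The part of the repeat in these peaks was not tested, and the 60 bases at the middle of the stretch, chr6:122565535-122565594 on the − strand of mm9, are printed to show it, all in lower case because they contain no CpG.
Gdf3 upstream: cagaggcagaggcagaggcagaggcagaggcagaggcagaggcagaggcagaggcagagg

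At the promoters and gene bodies of the receptors and Smads there was 1 H3K27me3 peak, that of Acvr1b, and no H2AK119ub1 peak, and the other peaks were of Flag-PCGF5. Acvr2b (chr9:119311562-119342619, + strand), a type II receptor that binds the ligand, had the widest promoter peak of the 10 genes, a Flag-PCGF5 peak of 2626 bp across its start in NPCs (chr9:119310647-119313272, fold 3.42, percentile 92.2). In its introns were 3 further Flag-PCGF5 peaks, with folds of 5.09, 2.66 and 2.40. The one with a fold of 5.09, the highest of any Flag-PCGF5 peak at the members, was 241 bp wide and centred 4155 bp downstream of the start, at percentile 96.9 of its list. Acvr2b had no peak of either histone mark at its promoter or gene body in any of the 8 histone lists.

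That intronic peak, chr9:119315654-119315894 on the + strand of mm9, is printed whole as the Flag-PCGF5 peak of the highest fold among the members. In contrast to the Nodal stretch it holds 0 CpG and has a GC content of 44.8%.
Acvr2b intron: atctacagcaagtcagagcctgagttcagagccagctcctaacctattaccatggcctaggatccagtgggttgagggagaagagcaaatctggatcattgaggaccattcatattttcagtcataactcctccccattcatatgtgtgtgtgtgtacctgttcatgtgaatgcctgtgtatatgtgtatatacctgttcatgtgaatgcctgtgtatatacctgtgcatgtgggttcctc

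Acvr1b (chr15:101004556-101043032, + strand), the type I receptor that phosphorylates Smad2 and Smad3, had an H3K27me3 peak of 328 bp centred 1456 bp upstream in PCGF5-depleted NPCs (chr15:101002937-101003264, fold 3.68, percentile 31.4). In wild type NPCs the nearest H3K27me3 peak was 44148 bp from its start. Flag-PCGF5 peaks in NPCs stood 5205, 9707 and 19197 bp upstream, outside the promoter window, with folds of 2.36, 2.46 and 2.50. Another, of 1015 bp and fold 1.91, was centred 50193 bp downstream of the start, past the gene end. It shared 124 bp with a wild type NPC H3K27me3 peak of 485 bp. Acvr1b was therefore the only member of which the H3K27me3 promoter peak was in PCGF5-depleted NPCs alone.

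Smad2 (chr18:76401234-76465385, + strand) and Smad3 (chr9:63494574-63605801, − strand) carry the signal to the nucleus. Neither had a promoter peak in any of the 10 lists. Smad2 had no peak within 20 kb, the nearest being an H3K27me3 peak in wild type ES cells 95083 bp away, and its nearest NPC Flag-PCGF5 peak lay 145396 bp from a start site. Smad3 had 1 intronic Flag-PCGF5 peak in NPCs, 198 bp wide with a fold of 1.95 (percentile 16.2), centred 4336 bp upstream of the nearest of its 4 start sites.

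Smad7 (chr18:75527183-75555589, + strand), which is induced by the pathway and blocks its receptors, had Flag-PCGF5 in NPCs at its promoter. A peak of 549 bp lay at the start (chr18:75527001-75527549, fold 2.00) and one of 2053 bp lay over the next exons, centred 32 bp from an internal start site (chr18:75528636-75530688, fold 2.70, percentile 79.2). No histone peak lay within its promoter or gene body. In wild type NPCs an H2AK119ub1 peak of 262 bp and an H3K27me3 peak of 213 bp stood 18723 and 18932 bp upstream and overlapped by 28 bp, both with low folds for their lists, at percentiles 18.9 and 5.93. Acvr2b and Smad7 were the members with promoter peaks in the NPC Flag-PCGF5 list alone, a pattern shared by 1934 genes (8.70%).

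**Figure D4:**
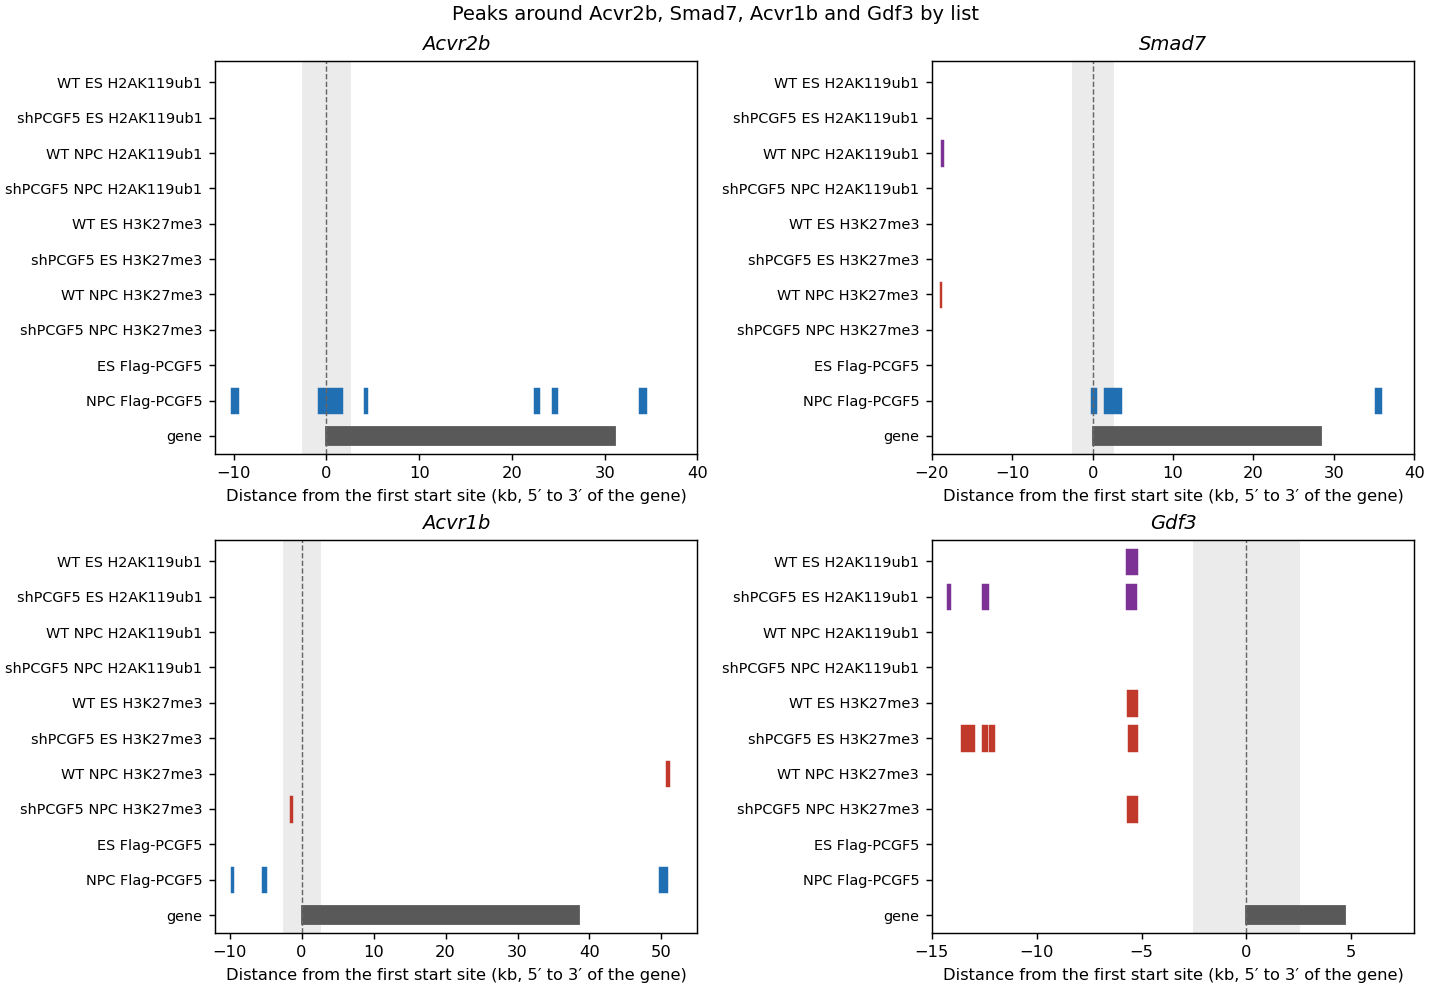
Peaks (coloured boxes, drawn to scale) of the 10 lists around Acvr2b, Smad7, Acvr1b and Gdf3, against distance from the first start site in kb in the direction of the gene, with a different range for each gene. Blue Flag-PCGF5 peaks cover the starts of Acvr2b and Smad7, and the red peak in the band at Acvr1b is from PCGF5-depleted NPCs. The column of peaks nearest upstream of Gdf3 is the stretch covered in 5 lists, and the peaks farther upstream are from PCGF5-depleted ES cells.

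Flag-PCGF5 over the members in NPCs was thus divided between a gene that had H3K27me3 and genes that did not. At the promoters it covered 5972 bp in all, of which 744 bp were at Nodal, 2602 bp at Smad7 and 2626 bp at Acvr2b, where the median over all 3055 genes with such a peak was 714 bp. Their highest folds were 2.30 at Nodal, 2.70 at Smad7 and 3.42 at Acvr2b, against a median of 2.18. Over the gene bodies, 4 members had Flag-PCGF5 in NPCs, with Smad3 added to these 3, against 21.0% of all genes, and in ES cells 0 did, against 1.39%.

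Of the 39 other genes of the wider pathway, 16 had H3K27me3 promoter peaks in NPCs of both genotypes, against 11.9% of all genes, and of the 10 members 0 did. The targets Eomes, Mixl1, Gsc, Lhx1, Foxa2 and Sox17, transcription factors of mesoderm and endoderm, were among these 16. Against 3.74% of all genes, wild type NPCs alone marked 2 of the 39 genes. One was Cfc1, a co-receptor related to Tdgf1, with 243 bp and a fold of 5.08. The other was Pmepa1, which restrains Smad signalling, with 1064 bp and a fold of 6.77. Against 3.54% of all genes, PCGF5-depleted NPCs alone marked 4 of the 39 genes. These were Fst, whose product binds activin, with 1368 bp, the inhibin subunit Inha with 254 bp, the receptor Tgfbr2 with 318 bp and the ubiquitin ligase Smurf1 with 227 bp.

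H2AK119ub1 had no promoter peak at the 10 members. It had one at 11 of the 39 genes in wild type NPCs and at 8 in PCGF5-depleted NPCs, against 4.98% and 4.17% of all genes. It was in wild type NPCs alone at Tgfb2 (136 bp), Pcsk6 (134 bp), Pmepa1 (571 bp) and Eomes (2268 bp), and in PCGF5-depleted NPCs alone at Inha (140 bp), where 2.46% and 1.65% of all genes showed these patterns. Among all genes, 13.7% had a Flag-PCGF5 promoter peak in NPCs and 0.787% in ES cells. Of the 39 genes, 13 had one in NPCs and 0 in ES cells. They were the ligands Inhba, Inhbb, Tgfb1 and Tgfb3, the antagonists Dand5 and Fst, the convertase Pcsk6, the receptor Tgfbr1, the nuclear partners Smad4 and Foxh1, the repressor Tgif1, the phosphatase Ppm1a, and the target Lhx1. Their promoter peaks covered 231 bp at Pcsk6 to 2200 bp at Tgfb1, with folds of 1.86 at Tgfbr1 to 3.62 at Inhbb. Flag-PCGF5 and H3K27me3 promoter peaks were both present in wild type NPCs at 6 of the 39 genes, against 3.48% of all genes. These 6 were Inhba, Inhbb, Tgfb1, Pcsk6, Tgfbr1 and Lhx1, and each also had H3K27me3 in PCGF5-depleted NPCs.

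The genes outside both lists whose promoter pattern was most like that of Nodal were found by the sum, over the 10 lists, of absolute differences in log2(covered bp + 100). The 5 nearest were 4930404N11Rik, the transcription factor Klf5, Macrod1, the DNA demethylation enzyme Tet2 and the deubiquitinase Otud1, with sums of 0.43, 0.46, 0.48, 0.55 and 0.56. Klf5 had 990 bp of H3K27me3 in wild type NPCs and 754 bp of Flag-PCGF5 in NPCs, beside 1379 and 744 bp at Nodal. Tet2 had 1040 and 850 bp. All 5 had 0 bp in the other 8 lists, and 114 genes (0.513%) showed that combination of lists.

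The sequence of the promoters, which the choice of genes did not use, differed among the members. In the 1000 bp around the first start site, the ratio of observed to expected CpG was 0.472 at Nodal, 0.270 at Lefty1, 0.279 at Lefty2, 0.366 at Gdf3 and 0.601 at Tdgf1. It was 0.834 at Smad3, 0.850 at Smad7, 0.887 at Acvr2b, 0.917 at Acvr1b and 1.01 at Smad2. The ratios at Nodal, Lefty1, Lefty2, Gdf3 and Tdgf1 thus lay below those at the receptors and Smads. This grouping was not planned beforehand, and Acvr1b and Acvr2b, which also act at the cell surface, lay with the Smads. The median over all genes was 0.554. The 3479 genes with H3K27me3 promoter peaks in wild type NPCs had a median of 0.671, so 4 of the 4 marked members lay below the median of genes with the same mark. Of the members with Flag-PCGF5, Acvr2b and Smad7 lay above the median of 0.710 of the 3054 genes with such a peak, and Nodal lay below it.

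**Figure D5:**
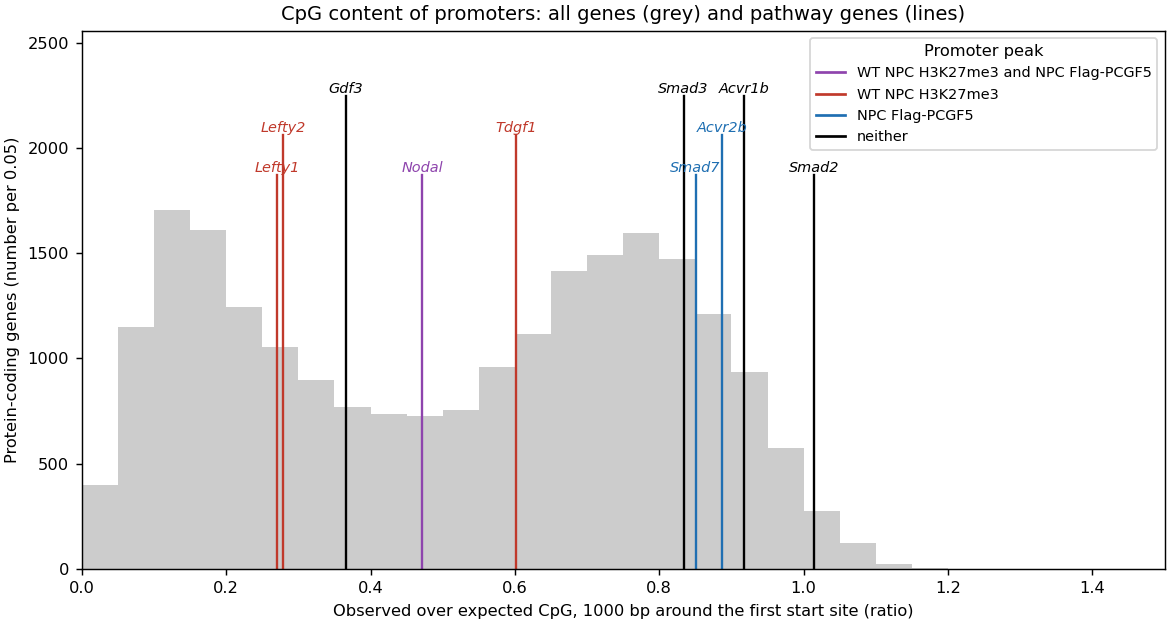
Observed over expected CpG in the 1000 bp around the first start site for all genes (grey histogram, number of genes per 0.05) and for the 10 pathway genes (vertical lines, coloured by promoter peak, the height of a line has no meaning). Lefty1, Lefty2 and Tdgf1, with H3K27me3 in wild type NPCs, and Nodal, with both, lie between 0.270 and 0.601, and the Flag-PCGF5 genes Smad7 and Acvr2b at 0.850 and 0.887.

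The letters bound by the pathway's own transcription factors were searched on both strands, with CAGAC for Smad proteins and AATNCACA for Foxh1. CAGAC occurred in each of the printed Nodal, Lefty1 and Tdgf1 sequences, once in each, and in 51.0% of the 300 bp windows at the centres of all wild type NPC H3K27me3 peaks. The printed Acvr2b sequence of 241 bp and the 60 bases at Gdf3 held 0 matches, and the 6-base repeat at Gdf3 cannot contain CAGAC. Both are shorter than 300 bp and come from other lists. In the central 300 bp, CAGAC was in 53.6% of NPC Flag-PCGF5 and 48.7% of wild type ES H3K27me3 peaks. AATNCACA occurred in none of the printed sequences and in 4.51% of the wild type NPC H3K27me3 windows. Within the 1000 bp promoters it was found at Gdf3 and Smad7, and among all promoters in 11.5%, while CAGAC was in 88.7% of promoters and in all 10 of the members.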

How the data were processed

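ChIP-seq peak lists of 10 libraries were analysed. According to the methods, chromatin for the histone marks was nuclease-digested, and that for Flag was doubly crosslinked and sheared by sonication, which affects peak width. The authors used Trimmomatic (reads under 36 bp were discarded), Bowtie2 for alignment to mm9, Picard against duplicates and MACS2 2.1.0 for peaks, library by library. The spike-in of the study scales signal and does not enter the lists. The deposited score is a rounded multiple of the −log10 p-value (histone) or −log10 q-value (Flag), the deposited fold is a ratio over local background within a library, and the deposited −log10 p-values and −log10 q-values are the caller's. Flag peaks had passed a q-value of 0.01. The methods state default settings for the histone marks, but 6 of the 8 histone lists hold peaks with a q-value above 0.05 (0.311% to 8.81% of them), so the threshold behind their peaks is not known. Fold percentiles are ranks within a list.

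A promoter peak had its centre within 2500 bp of a protein-coding start site (GENCODE M1), and its full width counted as covered bp. Gene body bp were clipped to the gene. Distances are from the peak centre for peaks described with their width, and from the nearest edge for the nearest peak in a list. Tandem repeats (units of 1 to 6 bases) were read over the first 5000 bp of longer peaks. The rule was tested on simulated peaks. Python 3.11.15, numpy 2.4.6, pandas 2.3.3 and matplotlib 3.10.9 were used. With 1 library per group no test was made, and the cited shares of all 22232 gene names are the background. All 10 members are named. Of the 39 wider genes those marked in NPCs of 1 genotype alone or by Flag-PCGF5 in NPCs are named, and the targets marked in both genotypes were named after their values were seen. The members and lists were chosen with earlier results of these data known. Sox1 is not among the annotated protein-coding names, leaving 4 of 5 neural markers. Some items are not reported here.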

Additional observations from a re-analysis of the deposited data

Results flagged for a closer look

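The H3K27me3 difference from wild type to PCGF5-depleted cells had opposite signs in the 2 stages, and the ES side rests on a single Lefty1 peak with a q-value above 0.05. The number of members with a promoter peak differed by 1 in ES cells, from 0 to 1, where 3.43% of all genes had one in PCGF5-depleted cells alone. It differed by -3 in NPCs, from 4 to 1, where 3.74% of all genes had one in wild type cells alone. At Lefty1 the promoter bp differed by 201 in ES cells and by -1638 in NPCs. With 1 library in each group no test of this opposition could be made.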

How the results depend on the processing

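No paired analysis was possible because each group had 1 library, and for the same reason no library could be left out. H3K27me3 in wild type NPCs kept 3 or 4 members with other windows, start sites and score thresholds, losing Lefty2 with a window of 1000 bp and Tdgf1 in the higher-scoring 50% of the list. The Lefty1 peak of PCGF5-depleted ES cells was the less stable, with 0 members, and a genotype difference of 0, under the 1000 bp window, the higher-scoring 50% and a q-value of at most 0.05. The Acvr1b peak of PCGF5-depleted NPCs was lost, leaving 0 members, under the 1000 bp window, the higher-scoring 50% and equal numbers of top-scoring peaks. With the Flag-PCGF5 lists cut to 653 peaks each, 0 members were left in NPCs. The 1000 bp window took Nodal out of the Flag-PCGF5 members (0 bp in place of 744), and with it the joint presence of Flag-PCGF5 and H3K27me3 at that promoter, while the 5000 bp window added Smad3. Counting any base of a peak within 20 kb of a gene, an alternative chosen after seeing the data, gave 1, 1 and 2 members for H2AK119ub1 in wild type ES cells, PCGF5-depleted ES cells and wild type NPCs, a genotype difference of 2 in NPCs, and for H3K27me3 1 and 2 members in wild type and PCGF5-depleted ES cells and 6 and 4 in wild type and PCGF5-depleted NPCs. For Flag-PCGF5 in NPCs it gave 6. Depth, which sets how much passes the caller's threshold, is unknown, so a missing peak limits what can be said of the mark.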
